A study of Mus musculus with 20 samples.

Results

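Chrna9 encodes the alpha9 subunit of the nicotinic acetylcholine receptor, a cation channel that acetylcholine opens. It was followed here in the EDL (extensor digitorum longus), a leg muscle of mostly fast fibres, on 20 one-colour Agilent expression arrays from male C57Bl6 mice. The gene was chosen by its own values on these arrays, which were well above background in legs with dominant-negative HDAC4 and HDAC5 and not in legs with an empty vector. Its levels and differences are therefore given as a description, with no test. It is 1 of 27376 gene names on the array and has 2 probes of 41174.

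The arrays fell into 4 groups of 5. HV stands for the right legs of vehicle animals, injected with 2 adeno-associated viruses of serotype 6 that carried HDAC4 with the mutation D832N and HDAC5 with D861N (dnHDAC4/5). EV stands for the left legs of the same vehicle animals, with an empty vector. HS and ES stand for the right legs with dnHDAC4/5 and the left legs with the empty vector of the animals given Scriptaid, a hydroxamate inhibitor of histone deacetylases. All animals were 8 weeks old when the vectors were injected, in 30 µL per muscle and at 2.5e10 vector genomes for each vector. The injection into the abdomen followed 4 weeks later, and the vehicle held 5% DMSO in saline. The labels used here do not give the Scriptaid dose. Every dnHDAC4/5 leg was a right leg and each group kept 1 place on all 5 slides, so leg side, place and vector cannot be told apart. EV, HV, ES and HS lay at places 1, 2, 3 and 4, so Scriptaid and place cannot be told apart either. Per the labels, each replicate is a separate animal, and a number such as HV 5 names the replicate.

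At the nerve-muscle contact of adult mice the receptor is built of the alpha1, beta1, delta and epsilon subunits, and gamma takes the place of epsilon before birth and after denervation. The alpha9 subunit is not part of that receptor. It forms channels alone or with alpha10, is best known from the hair cells of the inner ear, where calcium that enters through it opens small-conductance potassium channels, and has also been described in keratinocytes, lymphocytes and sensory neurons. HDAC4 and HDAC5 are class IIa histone deacetylases that hold down MEF2 target genes in muscle, and HDAC4 is known to link loss of the nerve to expression of receptor subunits.

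The 2 probes that carry every Chrna9 value are shown because they are different sequences that the array design assigns to 1 transcript. Both read the same labelled RNA on the same arrays, so they are not independent measurements. The longest run that each shares with a probe of another acetylcholine receptor gene is in capitals.
A_51_P381069: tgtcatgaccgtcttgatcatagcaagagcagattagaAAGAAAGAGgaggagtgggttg
A_52_P85903: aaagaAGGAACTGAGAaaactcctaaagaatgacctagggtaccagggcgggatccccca
Both are 60 bases long and are assigned to transcript NM_001081104 by the array design. The run shared by A_51_P381069 is 9 bases long and lies in a Chrne probe, and the run shared by A_52_P85903 is 11 bases long and lies in a Chrna2 probe. These were the longest runs among 30 probes of other acetylcholine receptor genes, and the 2 Chrna9 probes share no run of 12 bases with each other. The files list A_51_P381069 at chr5:66368450-66368509 and A_52_P85903 at chr5:66368222-66368281, which puts them 228 bases apart, and do not state the build. In the RefSeq annotation of GRCm38.p6 the gene lies at chr5:65934854-65977486, and the filed positions lie outside it. Read in that build they would fall in the span of Apbb2, 66298725 to 66619064. Which build they are in was not tested, and no exon is assigned to the probes.

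One array stood apart from its group and bears on every vehicle value below. Neither Chrna9 probe was well above background on HV 5. To see whether this held for other genes, the 100 genes other than Chrna9 with the smallest p between HS and ES were taken from the Scriptaid animals alone, without spots near the array edges. In vehicle animals 1, 2, 3 and 4, between 78.6% and 90% of those genes differed between the legs in the direction of the Scriptaid animals, with median leg differences of 0.25 to 0.72 on the log2 scale. In animal 5, 51.0% did, with a median difference of 0.0070. In the right leg of vehicle animal 5 Chrna9 was thus not well above background. The median leg difference of the 100 genes, seen in the other vehicle animals, was missing in animal 5. That difference also depends on the left leg, EV 5. There 1.95% of the brighter spots away from the edges lay more than 3 log2 units below their median over the arrays other than HS. This was the highest such share of any array, beside a median of 0.08% over all arrays. Which leg accounts for the missing difference, and the cause, were not tested. Results that rest on HV 5 are given with and without it.

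**Figure D1:**
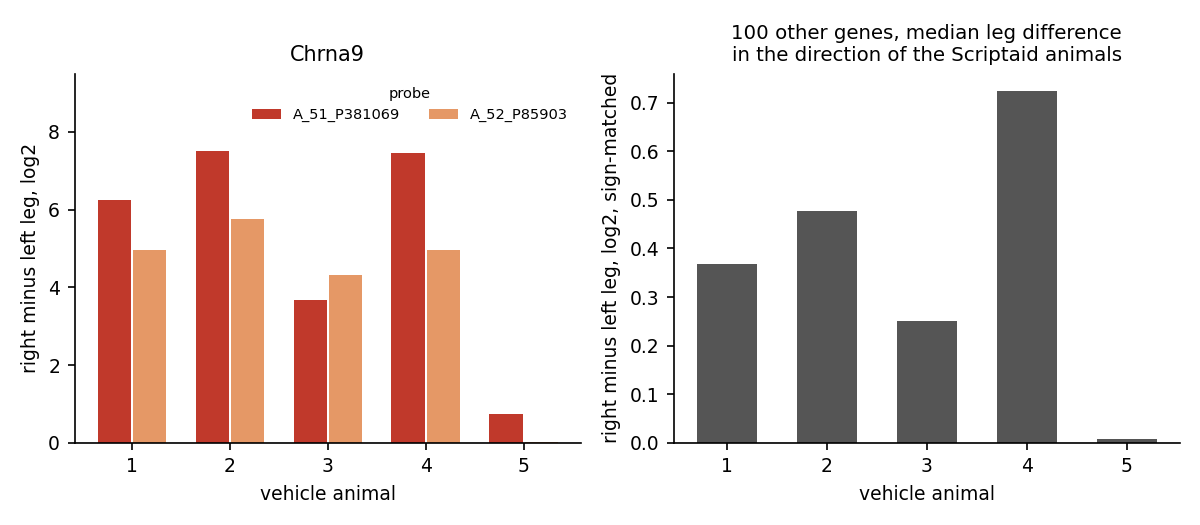
Right minus left leg on the log2 scale for the 5 vehicle animals: Chrna9 by probe (left panel), and the median over 100 other genes chosen in the Scriptaid animals, with each gene's sign matched to its direction there (right panel). Animal 5 has the smallest difference in both panels, 0.74 and 0.02 for the Chrna9 probes and 0.0070 for the other genes.

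Chrna9 was bright in 9 of 10 dnHDAC4/5 legs and near the floor of the assay in all 10 empty-vector legs. The processed intensity of A_51_P381069 was 309, 698, 375, 1206 and 8.94 in HV 1 to 5, against 5.57, 4.82, 22.6, 7.41 and 5.48 in EV 1 to 5. It was 306, 191, 388, 2571 and 284 in HS 1 to 5, against 5.13, 5.13, 9.15, 13.3 and 7.01 in ES 1 to 5. HV 1 to 4 and all HS arrays lay far above every empty-vector array, while HV 5 lay within the range of EV.

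The second probe gave the same order. The processed intensity of A_52_P85903 was 122, 228, 187, 407 and 6.06 in HV 1 to 5, against 5.39, 5.22, 7.19, 13.9 and 6.07 in EV 1 to 5. It was 122, 74.0, 133, 1038 and 311 in HS 1 to 5, against 5.25, 5.41, 5.86, 12.5 and 4.69 in ES 1 to 5. By the scanner software's own test each probe was well above background on 4 of 5 HV and 5 of 5 HS arrays. It was so on 0 of 5 EV and 0 of 5 ES arrays. A looser test of the software asks only whether the signal is positive and significant against background. A_51_P381069 passed it on 5 HV, 5 HS, 1 EV and 3 ES arrays, and A_52_P85903 on 4 HV, 5 HS, 1 EV and 1 ES arrays. No Chrna9 spot was saturated or marked as an outlier.

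For comparison between arrays the log2 of each intensity was taken relative to the 75th percentile of its array. On this scale A_51_P381069 averaged -0.71 ± 2.73 in HV and -5.83 ± 1.05 in EV, and 0.18 ± 1.23 in HS and -5.89 ± 0.44 in ES (SD, n = 5 each). A_52_P85903 averaged -1.93 ± 2.33 in HV and -5.93 ± 0.71 in EV, and -0.90 ± 1.31 in HS and -6.13 ± 0.56 in ES (SD, n = 5 each). The SD of HV rests on HV 5. In descending order of the mean the groups ran HS, HV, EV and ES with A_51_P381069. HS and HV overlapped, EV and ES overlapped, and HS did not overlap with ES.

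**Figure D2:**
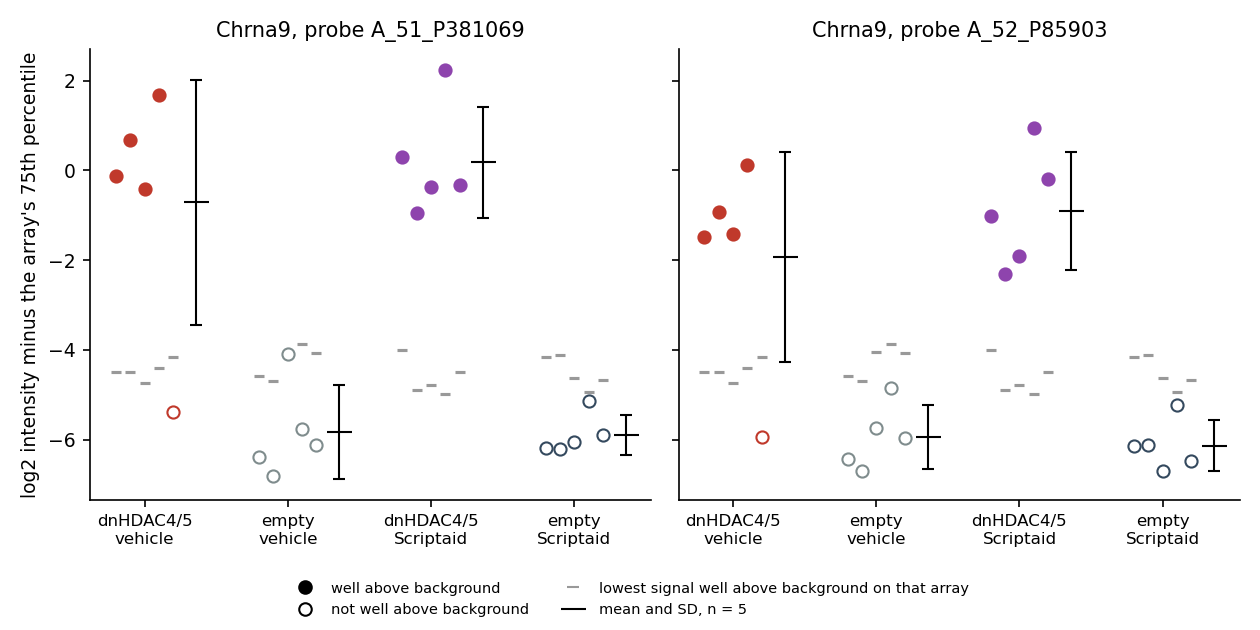
Chrna9 level on each array (log2 intensity minus the array's 75th percentile) for both probes and 4 groups, with mean and SD (n = 5); filled points are well above background and grey dashes mark the lowest signal that was well above background on that array. Filled points occur on 4 HV and 5 HS arrays, and the means of A_51_P381069 are -0.71 in HV, -5.83 in EV, 0.18 in HS and -5.89 in ES.

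The empty-vector arrays gave only values that were not well above background, here called under the detection limit, so the fold is a lower bound. It sets the mean of the dnHDAC4/5 arrays against the mean, per empty-vector array, of the lowest signal that was well above background or the probe's own signal, whichever was higher. With A_51_P381069, Chrna9 was at least 11.6-fold higher in HV than in EV, or at least 26.1-fold higher over the 4 HV arrays above background, and at least 25.7-fold higher in HS than in ES. These bounds hold for the deposited background correction; with normexp (offset 50) the measured differences were 1.62 (HV minus EV) and 3.17 (HS minus ES) on the log2 scale, under the bounds. With A_52_P85903 the bounds were 5.00-fold for HV over EV, 10.0-fold without HV 5, and 12.2-fold for HS over ES. The measured means differed by more than the bound, by 5.12 (HV minus EV) and 6.07 (HS minus ES) on the log2 scale with A_51_P381069 and by 4.00 and 5.23 with A_52_P85903. In these bulk samples a larger number of expressing cells and more Chrna9 RNA per cell cannot be told apart.

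The 2 legs of an animal were also compared with each other. They differ in vector, side and place on the slide, and HS arrays have low edge spots that ES arrays lack. With A_51_P381069 the right leg exceeded the left by 6.24, 7.50, 3.67, 7.45 and 0.74 in vehicle animals 1 to 5 and by 6.48, 5.26, 5.69, 7.38 and 5.57 in Scriptaid animals 1 to 5, on the log2 scale. With A_52_P85903 the leg difference was 4.95, 5.77, 4.31, 4.97 and 0.02 in vehicle animals and 5.12, 3.82, 4.79, 6.16 and 6.28 in Scriptaid animals. The right leg was higher in 10 of 10 animals with either probe, although in vehicle animal 5 both legs were under the detection limit. There only the right leg passed the looser test with A_51_P381069, and neither leg did with A_52_P85903, so their order is not read. In the other 9 animals every left leg was also under the limit, so the sizes of the leg differences are not ranked.

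**Figure D3:**
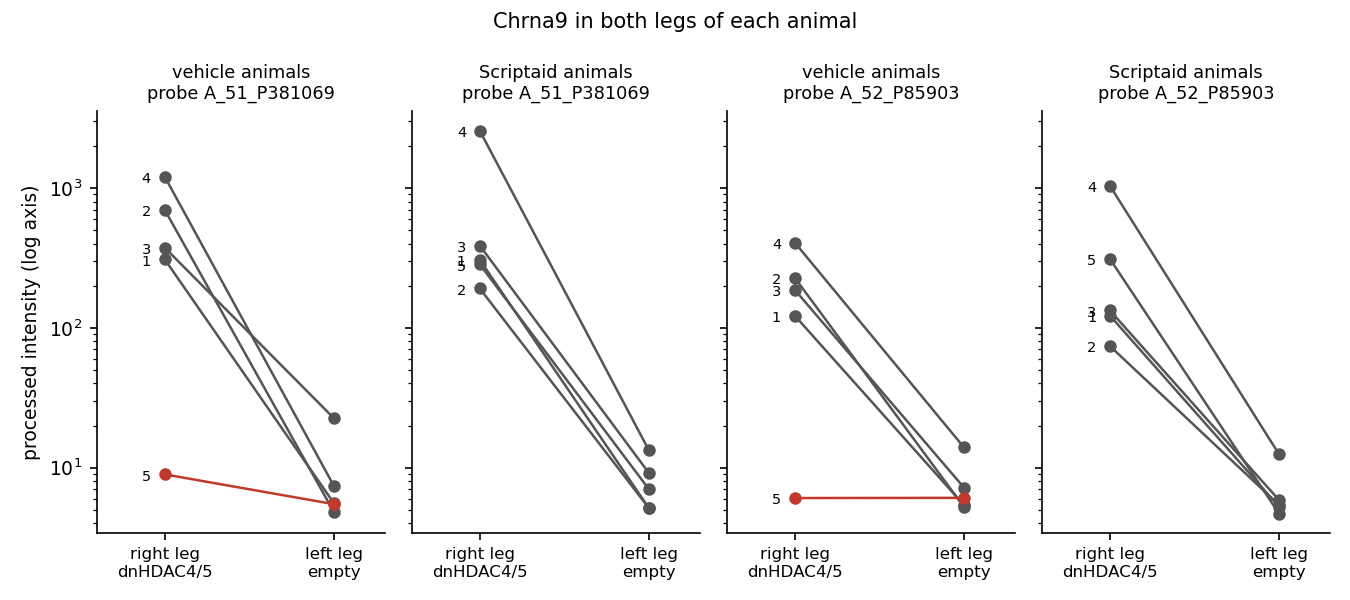
Processed intensity of Chrna9 (log axis) in the right, dnHDAC4/5, leg and the left, empty-vector, leg of each animal, by probe and by injection; numbers name the animal and the red line is vehicle animal 5. In 9 of 10 animals the line falls steeply to the left leg, and in vehicle animal 5 both ends lie between 5.48 and 8.94 for A_51_P381069.

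The Chrna9 level also varied among the dnHDAC4/5 legs. On the arrays above background it spanned 309 to 1206 in HV and 191 to 2571 in HS with A_51_P381069. The brightest array of either group was replicate 4, on 1 slide, with both probes. The log2 level of A_51_P381069 exceeded that of A_52_P85903 by 1.00 to 1.62 on 8 of the 9 arrays above background, while on HS 5 it was lower by 0.13, measured as a difference of -0.13.

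Scriptaid did not separate the groups. HS minus HV was 0.89 on the log2 scale with A_51_P381069 and 1.03 with A_52_P85903, and the groups overlapped with both probes. That difference rests on HV 5: without it, HS minus HV was -0.27 with A_51_P381069. ES minus EV was -0.06 with A_51_P381069 and -0.20 with A_52_P85903. None of these 10 arrays was well above background, so no change is read from them. Chrna9 was not well above background in any of the 5 empty-vector legs of Scriptaid animals.

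Presence on dnHDAC4/5 arrays and absence from empty-vector arrays was rare among all spots. Of 43379 spots that are not controls, 2 (0.00461%) were well above background on at least 8 of 10 dnHDAC4/5 arrays and on 0 of 10 empty-vector arrays, and these were the 2 Chrna9 spots. The pattern was part of what chose the gene, so nothing is read from this count. At 7 of 10 arrays, just outside, Serpinb1c, a serine protease inhibitor, joined them with 1 spot, and at 5 of 10 there were 10 spots of 9 genes. No spot showed the reverse pattern on 8 or more arrays, and 1 did on 7. Among the positive differences of 15725 genes that passed the filter below, the measured difference of Chrna9 came first for HV minus EV, before A930003A15Rik at 3.18, and for HS minus ES, before Pla2g5 at 4.17. Since Chrna9 is only bounded in the empty-vector legs, that rank rests on values under the detection limit. The negative differences reached -10.03 for HS minus ES.

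The other genes were tested. A gene entered the test when a probe was well above background on at least 5 arrays with at least 3 arrays left per group, its brightest probe stood for it, and limma was fitted to the 4 group means with Benjamini-Hochberg adjustment over 15725 genes. At an adjusted p under 0.05, 0 genes (0%) were called for HV minus EV, with 730 at an unadjusted p under 0.05, and 195 (1.24%) for HS minus ES. Scriptaid gave 0 calls (0%) for ES minus EV, with 602 at an unadjusted p under 0.05, and 202 (1.28%) for HS minus HV. The vector difference averaged over both injections gave 172 calls (1.09%), and 330 (2.1%) without HV 5. Near the array edges, 3.89% to 6.09% of the brighter spots on HS arrays lay more than 3 log2 units below their median over the other 15 arrays, against 0.03% to 0.73% on those 15. Without the last 12 columns and the first and last 12 rows, which hold neither Chrna9 spot, 14088 genes were tested, and 0 (0%) were called for HS minus ES, 1 (0.0071%) for HS minus HV and 30 (0.213%) for the averaged vector difference. That zone was set after seeing the arrays and after a narrower one, the outer 3 columns and 8 rows of every side, had left 52, 63 and 89 calls of 14990 genes for the same comparisons.

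Among the nicotinic subunits above background on at least 5 arrays, none came near the measured vector difference of Chrna9. That difference was part of what chose the gene and rests on values under the detection limit. For HV minus EV its bound was 2.32 with A_52_P85903, and normexp gave 1.62. With the deposited background correction the other subunits lay between -2.07 and 1.03 in HV minus EV and HS minus ES. The array holds 16 nicotinic subunit genes on 24 probes. Of these genes 6 were above background on no array, namely Chrna3, Chrna5, Chrna6, Chrna7, Chrnb3 and Chrnb4, which are subunits of neuronal receptors. Chrna10, the known partner of alpha9, and Chrnb2 were above background on 1 array each, in EV and in ES. Of the 7 tested subunits other than Chrna9, the fit without pairing called 0 in HV minus EV and 0 in HS minus ES. That stands beside 0% and 1.24% of all genes, from which 0 of 7 cannot be told apart. With animal as a random block, which pairs the legs, Chrnb1 and Chrng were called in HS minus ES, against 4.43% of all genes. In the averaged vector difference the same block called Chrna1 and Chrng, against 4.88%. The median difference of the 7 was 0.39 for HV minus EV and -0.04 for HS minus ES. Over all genes tested it was -0.0019 and 0.03, and 5 of 7 and 3 of 7 subunits were positive.

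Of the muscle receptor's subunits 1 was called with the vector in the fit without pairing. Chrng, the gamma subunit of fetal and denervated muscle, was called for the averaged vector difference, 0.85 ± 0.20 on the log2 scale (SE, limma adjusted p = 0.046). It was higher in the right leg of 10 of 10 animals, by means of 0.71 (HV minus EV) and 1.00 (HS minus ES). Its probe was well above background on 5 HV, 5 HS, 2 EV and 4 ES arrays. Some of these leg differences therefore rest on values under the detection limit. Its adjusted p was 0.077 without edge spots and 0.057 without the narrower zone, although its own probe lies in neither. With the animals' shared replicate number as a block, Chrng was also called in HS minus ES (limma adjusted p = 0.035). With animal as a random block it was called in HS minus ES and in the averaged difference. Its second probe, A_51_P288009, gave -1.70 and -0.70, the opposite direction, so the direction of Chrng depends on the probe.

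Chrna1, the alpha subunit that binds acetylcholine in muscle, was measured on all 20 arrays. Its log2 level was 3.05, 3.05, 2.32, 3.97 and 2.02 in HV 1 to 5, against 2.31, 2.18, 1.98, 2.05 and 2.44 in EV 1 to 5. It was 2.61, 2.33, 2.79, 3.61 and 3.67 in HS 1 to 5, against 1.79, 2.43, 2.32, 2.18 and 1.14 in ES 1 to 5. The groups overlapped in both kinds of animals, and the highest HV array was again HV 4. The averaged vector difference of Chrna1 was 0.86 ± 0.24 and missed the threshold (SE, limma adjusted p = 0.085). With animal as a random block it was called (limma adjusted p = 0.028), and without HV 5 it was 0.97 and was called (limma adjusted p = 0.033). Its second probe gave 0.62 and 0.71 for HV minus EV and HS minus ES, against 0.69 and 1.03.

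Chrne, the epsilon subunit of the adult receptor, averaged 1.72 in HV and 2.05 in EV, and 1.72 in HS and 2.19 in ES. Its differences of -0.34 and -0.47 were not called (limma adjusted p = 1.0 and 0.54). Chrnd, the delta subunit, differed by 0.39 and 0.22, and Chrna2, a subunit of neuronal receptors, by 0.08 and -0.04. The second Chrne probe gave -0.44 and 0.09. Chrna4, also neuronal, differed by -0.30 and -0.29 with its brighter probe and by 1.38 and -0.72 with the other, so its direction depends on the probe. Chrnb1, the beta subunit, was called lower in HS than in HV, by -2.76 on the log2 scale (limma adjusted p = 0.043), but its only probe lies in the edge zone of the array. Its level was -2.04, -0.55, -3.25, 0.99 and -2.92 in HS 1 to 5 and 0.87, 0.54, 2.44 and 0.96 in HV 2 to 5, with HV 1 left out as an outlier spot.

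**Figure D4:**
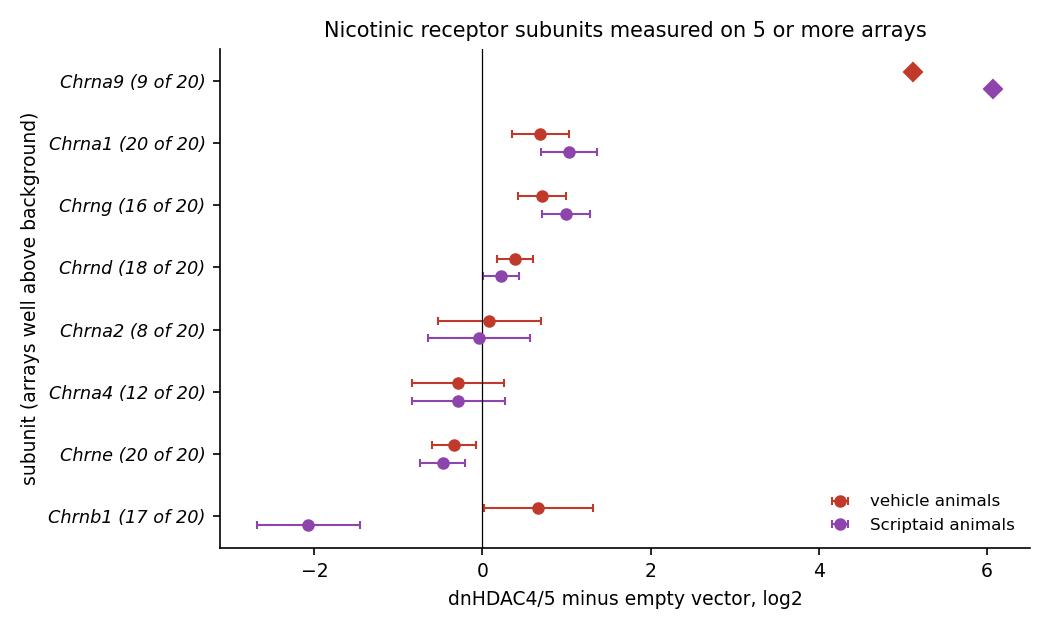
Difference between dnHDAC4/5 and empty-vector legs on the log2 scale for the 8 nicotinic subunit genes above background on 5 or more arrays, in vehicle and in Scriptaid animals; bars are limma standard errors, and Chrna9 is shown without one because it was not tested. Chrna9 stands at 5.12 and 6.07, the other subunits lie between -2.07 and 1.03, and the lowest value is that of Chrnb1, whose probe is at the array edge.

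Genes that make, break down, anchor or respond to the receptor gave 0 to 2 calls per comparison over all 20 arrays without pairing. With animal as a random block they gave 0 to 9. Without pairing but with 1 array left out they gave up to 5. The 5 lists held 72 genes other than Chrna9, chosen with earlier results of these data known, and 50 were tested, 9 of them by an edge probe. In HV minus EV 0 were called and in HS minus ES 0, against 0% and 1.24% of all genes. In ES minus EV 0 were called, and in HS minus HV 2 were, Chrnb1 and Myh3, against 1.28% of all genes. In the averaged vector difference 2 were called, Chrng and Gadd45a, against 1.09% of all genes, and without HV 5 there were 5, with Chrna1, Hdac9 and Musk in addition, against 2.1%. These counts come from a fit that leaves out that the legs are paired. With animal as a random block the averaged difference gave 9 of 50, against 4.88% of all genes: Chrm1, Chrna1, Chrng, Gadd45a, Hdac9, Lynx1, Mef2a, Musk and Rapsn. The same block gave 4 in HS minus ES, against 4.43%, namely Chrm1, Chrnb1, Chrng and Gadd45a, and 1 in HV minus EV, against 0.0254%, namely Myh3, which was lower. With the replicate number as a block, which also marks the slide, the averaged difference gave 2, Chrng and Gadd45a.

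In the list of the class IIa deacetylase and denervation axis all 18 genes were tested. Gadd45a, a stress-response gene that is raised in denervated muscle, had log2 levels of 2.89, 3.94, 2.33, 3.45 and 1.97 in HV 1 to 5, against 1.40, 1.79, 1.82, 2.10 and 1.90 in EV 1 to 5. It had 3.10, 2.61, 2.31, 4.71 and 3.43 in HS 1 to 5, against 2.18, 2.04, 1.84, 2.23 and 1.80 in ES 1 to 5. As with Chrna9, the 9 dnHDAC4/5 arrays other than HV 5 lay above every empty-vector array, and HV 5 lay within the empty-vector range. The share of all genes with that order is not given, so it is not read as particular to Gadd45a. Replicate 4 was the highest of HS, as with Chrna9, but HV 2 and not HV 4 was the highest of HV. The averaged difference was 1.16 ± 0.27 (SE, limma adjusted p = 0.042), higher in the right leg of 10 of 10 animals, and the adjusted p was 0.072 without edge spots and 0.053 without the narrower zone.

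Myh3, the embryonic myosin heavy chain, was called higher in HS than in HV, by 1.09 on the log2 scale (limma adjusted p = 0.044), a call that ended without edge spots (adjusted p = 0.34). It averaged -2.28 in HV and -0.87 in EV, and -1.19 in HS and -1.53 in ES, and its averaged vector difference was -0.54 and not called (limma adjusted p = 0.19). Musk, the receptor kinase that organises the synapse, differed by 0.95 (HV minus EV) and 1.02 (HS minus ES), with an averaged adjusted p of 0.19 by limma, 0.036 without HV 5 and 0.038 with animal as a random block. Myog, Runx1 and Ncam1, which denervated muscle is known to raise, were not called, with averaged differences of -0.37 and 0.14 for Myog and Runx1 and with 0.28 (HV minus EV) and -0.58 (HS minus ES) for Ncam1. Dach2, a repressor known from the HDAC4 axis, had 0.52 and -1.52 and Dach1, its paralog, -0.31 and -0.83, both from edge probes and not called. Mef2a, a MEF2 factor, had an averaged 0.38, which was called with animal as a random block (limma adjusted p = 0.037) and not otherwise. The Hdac4 and Hdac5 probes differed by 0.29 and -0.01 on average. Whether they read the vectors' transcripts cannot be told, since the vector sequences are not given in the sources used here. Hdac9, another class IIa deacetylase, had -0.46 (limma adjusted p = 0.13). It was called without HV 5, at -0.55 (limma adjusted p = 0.028), and with animal as a random block (limma adjusted p = 0.041).

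Of the 12 genes of acetylcholine synthesis, transport, breakdown and muscarinic receptors 5 were tested and 0 were called in any of the 5 comparisons, beside 0% to 1.28% of all genes. Chat, Slc5a7 and Slc18a3, which make acetylcholine and load it into vesicles, were above background on 1, 0 and 0 arrays. Ache, the enzyme that breaks it down at the synapse, had differences of -0.69 and -0.52 for HV minus EV and HS minus ES, and Bche, the related butyrylcholinesterase, 0.59 and 0.42. Chrm1, a muscarinic receptor, had -0.57 and -1.69, the second called with animal as a random block (limma adjusted p = 0.035), and Prima1, the membrane anchor of acetylcholinesterase, 1.40 and -0.17, both from edge probes. Of the 11 genes of calcium entry and calcium-activated potassium channels 9 were tested and 0 were called, which such shares would also give. Kcnn2, the small-conductance potassium channel that alpha9 receptors act through in hair cells, differed by -0.30 and -0.46. Kcnn4, a related potassium channel, differed by 0.05 and 0.37, and the calcium release channels Ryr3 and Ryr1 by -0.68 and 0.30 and by -0.08 and -0.27. Kcnn3 was above background on no array. Of the 16 genes of receptor assembly, clustering and Ly6 modulators 11 were tested and 0 were called, beside 0% to 1.28% of all genes. Of these 11, 6 had an unadjusted limma p under 0.05 for the averaged vector difference, beside 1916 of 15725 genes. Ric3, a chaperone of nicotinic receptors, differed by 0.27 and 0.55, Rapsn, which clusters the receptor, by 0.35 and 0.13, and Lynx1, a Ly6 protein that dampens it, by -0.34 and -0.43. Slurp1, a secreted Ly6 protein, differed by 1.03 and 0.82 and Lypd6 by -0.78 and -0.53, with none of these called. With animal as a random block Lynx1 and Rapsn were called in the averaged difference (limma adjusted p = 0.043 for both), as was Musk of the same list.

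The genes on either side of Chrna9 on chromosome 5 did not share its pattern. In GRCm38.p6 the 5 nearest annotated genes on 1 side are Rhoh, N4bp2, Pds5a, Ube2k and Smim14, and on the other Rbm47, Nsun7, Apbb2, Uchl1 and Limch1. Nsun7 was above background on no array and Rbm47 on 1. The 8 tested neighbours had differences of -0.55 to 0.36 for HV minus EV and -0.86 to 0.75 for HS minus ES, and 0 were called in either. For the averaged vector difference 1 of 8 was called, against 1.09% of all genes, and it was lower.

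That gene was Apbb2, which encodes an adaptor protein that binds the amyloid precursor protein. Its log2 level was 2.74, 2.32, 3.12, 1.89 and 3.53 in HV 1 to 5, against 3.15, 3.15, 3.39, 3.16 and 3.48 in EV 1 to 5. It was 2.31, 2.02, 2.80, 2.00 and 2.17 in HS 1 to 5, against 3.06, 3.02, 3.18, 3.16 and 3.19 in ES 1 to 5. HS did not overlap with ES, HV 5 was the highest HV array at even spacing from the next, and the lowest array of either dnHDAC4/5 group was replicate 4, the brightest for Chrna9. The averaged difference was -0.70 ± 0.16 (SE, limma adjusted p = 0.042), with adjusted p = 0.072 without edge spots, 0.053 without the narrower zone and 0.0059 without HV 5. The mean of its probes gave -0.30 and was not called (limma adjusted p = 0.39). With the replicate block Apbb2 was also called in HS minus ES, at -0.86 (limma adjusted p = 0.028).

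Over the 20 arrays the levels of several genes followed that of Chrna9. Likeness was measured as Pearson's r over 20 arrays among 13642 genes with a value on each, and the arrays of a slide share their hybridisation and those of an animal its legs. The 10 named genes of highest r lay between 0.861 and 0.921, 44 genes reached 0.8, and the median over all genes was 0.0124. Since the arrays fall into a group with Chrna9 and one without, a high r mainly records that a gene differed between those groups, and the vector differences of these genes are given with no test for the same reason.

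Igfn1, a protein of the muscle Z-disc, was most like Chrna9 (r = 0.921). Its log2 level was 1.98, 2.44, -0.31, 1.74 and -0.76 in HV 1 to 5, against -2.33, -1.88, -1.62, -1.68 and -1.89 in EV 1 to 5. It was 0.23, 0.36, 0.08, 2.18 and 1.64 in HS 1 to 5, against -1.64, -2.51, -1.88, -2.58 and -1.77 in ES 1 to 5. All 10 dnHDAC4/5 arrays lay above every empty-vector array, HV 5 as the lowest of them, so this gene lay outside the empty-vector range on HV 5, where Chrna9 was not well above background.

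The next were Il6st, the signalling chain of the interleukin-6 receptor family (r = 0.891), Ces2c, a carboxylesterase (0.886), Gsdma, a pore-forming gasdermin (0.878), and Csrp1, a LIM-domain protein (0.874). Bmp2k, a kinase, followed with 0.874, Dcun1d3, a protein of cullin neddylation, with 0.872, and Pla2g5, a secreted phospholipase, with 0.868. Nos1, the neuronal nitric oxide synthase that sits at the membrane of fast fibres, and Fam19a5, a secreted chemokine-like protein, had 0.864 and 0.861. Probes of the Ces2 family may not tell its members apart.

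Their measured differences were smaller than the measured difference of Chrna9, which is itself only bounded. On the log2 scale its bounds were 3.54 and 4.69 for HV minus EV and HS minus ES with A_51_P381069 and 2.32 and 3.60 with A_52_P85903, and Pla2g5, Igfn1 and Gsdma exceed some of the bounds of A_52_P85903. HV minus EV and HS minus ES were 2.90 and 2.98 for Igfn1, 1.68 and 3.08 for Ces2c, 2.50 and 2.26 for Gsdma and 2.55 and 4.17 for Pla2g5 on the log2 scale. They were 0.59 and 0.55 for Nos1, 0.56 and 0.67 for Fam19a5, 0.39 and 0.74 for Il6st, 0.49 and 0.64 for Csrp1, 0.32 and 0.31 for Bmp2k and 0.29 and 0.25 for Dcun1d3. HV 5 lay within the range of the empty-vector arrays in 9 of the 10 genes, all but Igfn1. The genes were chosen over all arrays, HV 5 included, so a low HV 5 was part of the choice and nothing is read from this count. Il6st, Csrp1 and Pla2g5 are measured by edge probes, and the other 7 are also among the 10 most like Chrna9 without those spots. The values of these 7 and of Chrna9 come from inner spots and do not change there, so nothing is read from that. Without the narrower zone all 10 remained.

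Within the 9 arrays on which Chrna9 was above background the 10 genes correlated with it at 0.174 to 0.906. Nos1 (0.906), Dcun1d3 (0.854) and Fam19a5 (0.850) had the highest of these values, and Gsdma had the lowest. By Spearman's rho 6 of the 10 remained among the first 10, with Dcun1d3, Mfhas1, Gadd45a, Wdr46 and Nos1 the 5 highest. By the 10 leg differences none of the 10 remained among the first 10.

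**Figure D5:**
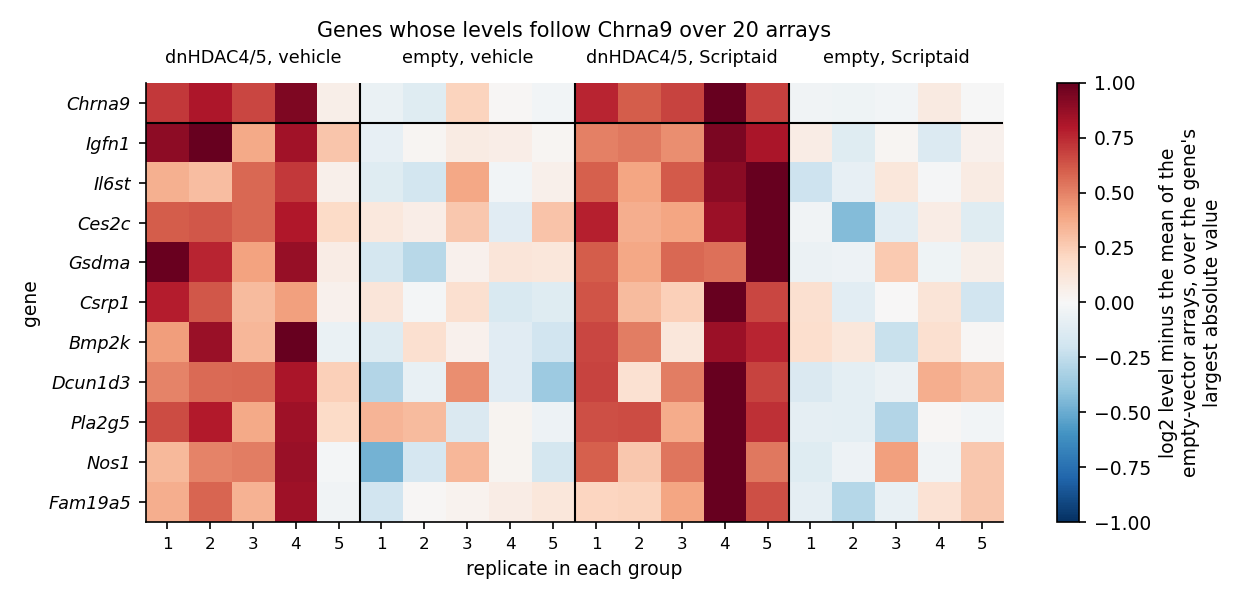
Chrna9 and the 10 genes whose log2 levels correlate best with it, on 20 arrays by group and replicate; colour is the level minus the gene's mean over the empty-vector arrays, divided by the gene's largest absolute value, so it shows pattern and not size. The rows are red on HV 1 to 4 and on HS 1 to 5 and pale on HV 5, where 9 of the 10 genes lie within the range of the empty-vector arrays. HV 5 was among the arrays that chose the genes, so its pale column was part of the choice.

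Markers of cells that are known to express Chrna9 were checked, as were those of the muscle itself. Of 8 hair cell markers 4 were tested, Atoh1 and Slc26a5 were above background on no array, and their summed level lay between 0.19 and 0.62 in HV and -0.13 and 0.38 in EV, and between 0.06 and 0.51 in HS and 0.11 and 0.51 in ES (log2 of the sum). Of 8 markers of sensory and motor neurons 2 were tested, Calca and Mnx1 were above background on no array, and the sum lay between -1.88 and -1.37 in HV and -1.97 and -1.51 in EV, and between -2.12 and -1.37 in HS and -2.12 and -1.63 in ES. Both lists overlapped between all groups.

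Of 7 keratinocyte markers 5 were tested and Dsg3 was above background on no array. Their sum lay between 0.48 and 0.86 in HV and -0.11 and 0.68 in EV, and between 0.66 and 1.07 in HS and 0.04 and 0.74 in ES. Of 8 lymphocyte markers 4 were tested, Cd79a and Cd8a were above background on no array, and the sum lay between -1.78 and -1.40 in HV and -1.72 and -0.04 in EV, and between -2.12 and 0.89 in HS and -1.69 and -1.34 in ES. None of the tested markers of these 4 cell types was called in a vector comparison, beside 0%, 1.24% and 1.09% of all genes. Of the 5 tested keratinocyte markers 3 had an unadjusted p under 0.05 for the averaged vector difference, beside 1916 of 15725 genes.

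Fast fibre markers, the check of the labelled muscle, were above background on 18 or more arrays for the 9 tested genes, with sums of 10.07 to 10.49 in HV and 10.01 to 10.38 in EV, and of 9.91 to 11.05 in HS and 9.81 to 10.53 in ES, over 9 of 10 genes. Slow fibre markers varied more in the dnHDAC4/5 legs, from 2.70 to 7.55 in HV and 6.77 to 7.79 in EV, and from 2.90 to 7.73 in HS and 6.74 to 7.40 in ES. In the vector comparisons 0 of 7 were called, beside 0%, 1.24% and 1.09% of all genes. Of the 7, 0 were higher in HV than in EV and 7 were higher in HS than in ES, beside 49.6% and 55.3% of all genes. Their median differences were -1.28 and 0.49 on the log2 scale. Satellite cell markers ranged from 2.01 to 3.07 in HV and 1.80 to 2.31 in EV, which overlap, and from 2.50 to 3.22 in HS and 1.99 to 2.40 in ES, which do not. Of 4 genes 3 were tested, with Myf5 above background on 1 array, and none was called, beside the same shares of all genes. Schwann cell markers lay between 1.38 and 4.04 in HV and 3.01 and 4.12 in EV, and between 3.10 and 4.47 in HS and 2.93 and 3.86 in ES, over 7 of 7 genes tested. Of these Sox10 was called lower in HS minus ES (limma adjusted p = 0.038) and in the averaged difference (limma adjusted p = 0.031), by an edge probe. All genes were called at 1.24% and 1.09% there. Of the 7, 1 was higher in HV than in EV, 3 in HS than in ES and 0 in the averaged difference. Over all genes these shares were 49.6%, 55.3% and 53.6%. The median differences of the 7 were -0.82, -0.03 and -0.38 on the log2 scale. Whether these cell types have a part in the Chrna9 signal was not tested.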

How the data were processed

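Per the labels' protocols, labelling with Cy3 started from 100 ng of RNA. Per the file headers, Agilent Feature Extraction 9.5.1.1 (protocol GE1-v5_95_Feb07) corrected background with spatial detrending and gave the deposited processed intensity of 45018 spots. The deposited series matrix holds a ratio, the intensity divided by a constant per array, and has no Chrna9 row, so it was not used for values. Here each intensity became log2 minus the array's 75th percentile (248.4 to 608.1) of 43379 non-control spots, and 51.7% to 61.3% of spots were well above background. Spots marked non-uniform or population outlier were left out (12539 over all arrays). The tools were limma 3.58.1, R 4.3.3, Python 3.11.15 and pandas. The fit was tested on simulated data for HV minus EV. The number of arrays limits precision.

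Gene names are the files' own. Of 32724 accessions 19472 matched the RefSeq table. Per the labels, groups follow the treatment entries; the titles of the ES samples say vehicle. The members and lists were chosen with earlier results of these data known, and the averaged vector comparison and the 100-gene check were added after seeing them. The legs of 1 animal pair the samples: their deviations correlated at 0.030 to 0.414 in vehicle and 0.203 to 0.345 in Scriptaid animals. The rule named Chrna9, the nicotinic subunits, called list members and up to 4 per list by size, the 10 genes of highest likeness, the neighbours and the markers; Myog, Runx1, Ncam1, Mef2a, Hdac4, Hdac5, Hdac9, Lynx1, Rapsn and the untested list genes were named for their known role after their values were seen. Both edge zones were set after seeing the arrays, the wider one after the calls left by the narrower.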

Additional observations from a re-analysis of the deposited data

Results flagged for a closer look

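In each group of 5 arrays the gap between the farthest array and its neighbour was set against the group's range, for 92 sets of Chrna9, subunit, called and likeness values, and 4 stood out, where chance alone gives about 1 in 20. On A_52_P85903 the Chrna9 level of HV 5, -5.94 on the log2 scale, lay far below the other HV arrays, and so did the leg difference of vehicle animal 5, 0.02. With A_51_P381069 the level of HV 5, -5.38, fell just short of that limit. ES 4 was the highest ES array with A_51_P381069, at -5.13, still under the detection limit. The Chrne level of HS 2, 0.65, lay below the other HS arrays.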

How the results depend on the processing

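The Chrna9 vector differences kept their sign in all settings. HV minus EV (5.12) was 1.62 and HS minus ES (6.07) was 3.17 with normexp background correction, and HS minus ES was 4.69 with values under the detection limit set to it; the cause of the normexp change was not tested. With each array left out they ranged from 4.52 to 6.29 and from 5.56 to 6.36. HS minus HV (0.89) ranged from -0.27, without HV 5, to 1.49. The replicate block moved no Chrna9 difference (5.12, 6.07 and 0.89), since the groups are balanced. The authors' matrix could not be used for Chrna9, which it does not list. Called list genes were counted again. For HV minus EV (0) there was 1 with animal as a random block, and 0 with each array left out. For HS minus ES (0) there were 1 with the replicate block, 4 with animal as a random block, 1 with normexp and 1 with no filter, and 0 to 2 with each array left out, the 2 without HS 2. For ES minus EV there were 0 throughout. For HS minus HV (2) there were 0 with animal as a random block and without either edge zone, 1 with normexp, no filter, outlier spots kept and the mean of all probes, 2 with the replicate block (Mef2d and Myh3, not Chrnb1), and 0 to 4 with each array left out, the 4 without HS 2. For the averaged vector difference (2) there were 9 with animal as a random block, 1 with normexp and with the mean of all probes, 0 with no filter and without either edge zone, and 0 to 5 with each array left out, the 5 without HV 5. Over all genes, the replicate block called 359 for HS minus ES (195), 376 for HS minus HV (202) and 405 for the averaged difference (172). The random block called 4, 697 and 768 for HV minus EV (0), HS minus ES and the averaged difference, and no filter 322 and 72 for HS minus ES and the averaged difference. With each array left out the counts ranged from 0 to 3 for HV minus EV, 112 to 380 for HS minus ES, 133 to 476 for HS minus HV and 78 to 330 for the averaged difference. Chrng reversed to -0.0025 with normexp and to -0.18 with the mean of its probes. Leaving out 1 array ended the call of Chrng for 15 arrays (highest adjusted p 0.090), of Gadd45a for 15 (0.086), of Apbb2 for 16 (0.088), of Chrnb1 for 17 (0.14) and of Myh3 for 15 (0.13). Of the 10 genes most like Chrna9, 6, 7 and 0 remained by Spearman's rho, without edge spots and by leg differences. The 7 are measured by inner spots, so their r could not change without edge spots. The background of the arrays limits Chrna9 on the empty-vector arrays, where its level is only bounded.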
